A study of Mus musculus with 8 samples.

Results

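The Bcl2 family decides, at the outer mitochondrial membrane, whether a cell starts the intrinsic pathway of apoptosis. Its effectors *Bax* and *Bak1* open pores in that membrane and let cytochrome c out to the caspases. The anti-apoptotic proteins *Bcl2*, *Bcl2l1* (Bcl-xL) and *Mcl1* hold the effectors back, and the BH3-only proteins, which share just the short BH3 helix with the rest, carry stress signals that relieve this block or activate the effectors directly. *Opa1* encodes the dynamin-related GTPase that fuses the inner mitochondrial membrane and keeps its cristae narrow, and cristae are where most cytochrome c is stored. In the cochlea the family is known mainly from the death of hair cells and spiral ganglion neurons after noise, aminoglycosides and ageing.

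The members were the 10 entries of the count tables whose symbol is *Bax*, *Bak1*, *Bcl2*, *Bcl2l1*, *Mcl1*, *Bcl2l11* (Bim), *Bbc3* (Puma), *Pmaip1* (Noxa), *Bid* or *Bad*, out of 47628 named entries. All 10 were found, and all 10 passed the minimum of a mean normalized count over 10, as did 19366 entries in all. RNA seq of whole cochleae was compared between 4 untreated wild-type (WT) mice, animals 4, 5, 6 and 8, and 4 untreated *Opa1*+/- mice, animals 2, 7, A and B, all aged 21 days, where A and B stand here for the lower and the higher of the 3-digit animal numbers in the labels. The *Opa1*+/- mice carry the delTTAG deletion, a recurrent human mutation, on 1 *Opa1* allele in every cell, as a knock-in on a mixed C57BL/6 J and 129 Sv/Pas background that the WT mice share. Each library held RNA of cochleae from 1 mouse, so that hair cells, neurons, glia, stria, bone and blood are all in it, and a loss of cells of a type cannot be told apart from less RNA per cell.

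Counts on named genes ranged from 15978051 to 20828030 per library. *Opa1* itself, from 29579334 to 29654884 on chromosome 16, had 111.7 to 125.9 CPM (counts scaled to library size) in WT and 60.4 to 70.02 CPM in *Opa1*+/- mice, so that every library bore out its label. Its log2 fold change was -0.87 (standard error, SE, 0.0677; adjusted p = 0.00515, Benjamini-Hochberg, from edgeR's quasi-likelihood test). All 12 genes of a list of cochlear markers, *Otof* among them, had counts in every library. The 4 Y-linked genes examined were expressed in all 8 mice and *Xist* had at most 8 counts, so the groups did not differ in these sex-linked transcripts. Every library thus showed the pattern of male mice, and the values here do not cover females. Blood and marrow markers varied between mice. The summed CPM of 11 erythroid markers ran from 7881 to 21629.9 in WT and from 15215 to 25218 in *Opa1*+/- mice (exact permutation test, two-sided, p = 0.171), and WT mouse 4 and *Opa1*+/- mice A and B held the highest values.

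What unites the 10 genes at the sequence level is the BH3 core, a leucine, 3 further residues, and then a small residue with an aspartate. It is shown here for 9 members because it is the groove-binding element through which the family's proteins meet each other. *Pmaip1*, whose coding sequence holds 2 matches in the strict form, is not printed. In each coding sequence, on the GRCm38 reference with the GENCODE vM21 annotation, the capitals mark the leucine codon and, after 3 codons, the codon of the small residue and that of the aspartate.
Bax: gagtgtCTCcggcgaattGGAGATgaactg
Bak1: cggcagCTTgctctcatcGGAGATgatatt
Bcl2: ctgaccCTCcgccgggctGGGGATgacttc
Bcl2l1: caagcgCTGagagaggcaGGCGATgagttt
Mcl1: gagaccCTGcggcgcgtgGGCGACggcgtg
Bcl2l11: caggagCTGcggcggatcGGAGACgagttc
Bbc3: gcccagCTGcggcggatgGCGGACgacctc
Bid: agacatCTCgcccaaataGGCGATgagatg
Bad: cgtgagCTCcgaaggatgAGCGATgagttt

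On the minus strand, these stretches lie at chr7:45466000-45466029 for *Bax*, chr17:27022534-27022563 for *Bak1*, chr1:106712578-106712607 for *Bcl2*, chr2:152829700-152829729 for *Bcl2l1* and chr6:120897292-120897321 for *Bid*. On the plus strand, they lie at chr3:95659430-95659459 for *Mcl1*, chr2:128147144-128147173 for *Bcl2l11*, chr7:16313767-16313796 for *Bbc3* and chr19:6950786-6950815 for *Bad*. Each is exonic and within the coding sequence. With a glycine codon (GGN) as the small residue, the pattern was found in 8 of the 10 members. *Bbc3* has an alanine codon (GCG) and *Bad* a serine codon (AGC) in its place, and with these allowed all 10 members matched. The pattern is short, and in the longest coding sequences of 21575 genes, read in frame on the coding strand, it was present in 13.3% in its strict form and in 34% with alanine or serine allowed.

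No member passed an adjusted p of 0.05 between the genotypes, in edgeR or in DESeq2's Wald test. Across all genes tested, edgeR called 0.0258%, which is 5 genes, and DESeq2 called 0.119%. At an unadjusted p under 0.05, *Mcl1* was the single member below the threshold in each tool, 1 of 10 against 6.72% of all genes in edgeR and 5.61% in DESeq2. Fold changes were small and went both ways, with 5 members higher and 5 lower in *Opa1*+/- mice and a median log2 fold change of -0.0190, against 3.950e-04 over all genes. The 95% intervals of 7 members lay within 0.5 of 0 on the log2 scale, and those of 9 lay within 1. The 3 members with wider intervals, *Bbc3*, *Pmaip1* and *Bid*, are BH3-only genes with low counts or a large spread between mice.

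**Figure D1:**
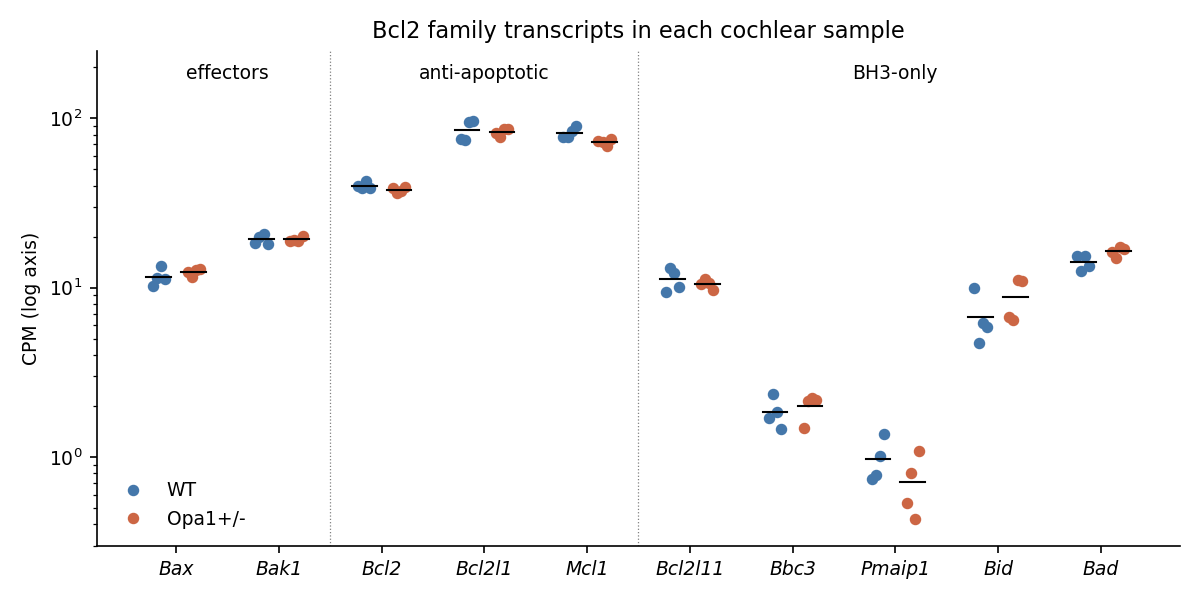
CPM of each member in each of the 8 cochlear samples on a log axis, grouped by role, with WT in blue, *Opa1*+/- in orange and a black line at each group's mean. The anti-apoptotic genes lie highest, *Mcl1* is the member whose groups do not overlap, and *Bid* falls into high and low mice in both genotypes.

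Levels can be compared between genes only per length, here as CPM per kilobase of the summed exons of each gene. *Mcl1* came first with 22.6 ± 1.99 (SD, n = 8), followed by *Bcl2l1* with 18.4 ± 1.88. These ranges overlapped over the 8 mice, although *Mcl1* was above *Bcl2l1* within each mouse. The effectors followed at 8.01 ± 0.370 for *Bak1* and 7.60 ± 0.675 for *Bax*, which overlapped each other, and *Bax* overlapped *Bad* at 5.98 ± 0.632. *Bcl2* had 4.25 ± 0.209 per kilobase, separate from both neighbours. The lowest were *Bid* with 2.18 ± 0.704 and *Bcl2l11* with 1.35 ± 0.157, whose ranges overlapped, then *Bbc3* with 0.907 ± 0.163 and *Pmaip1* with 0.309 ± 0.111, each separate from the next. Between the first and the last lay a factor of 73.2. With the longest coding transcript as the length, *Bcl2l1* moved to first place and *Mcl1* to second, and *Bax* and *Bad* moved ahead of *Bak1*.

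Summed per kilobase, the 3 anti-apoptotic genes made up 60.2% to 68.3% of the summed level of these 10 genes in a mouse, the 2 effectors 19.4% to 22.8% and the 5 BH3-only genes 12.4% to 17.5%. In WT mice the anti-apoptotic share ran from 63.2% to 68.3%, and in *Opa1*+/- mice from 60.2% to 62.5%, without overlap. WT mouse 4 at 63.2% and *Opa1*+/- mouse 2 at 62.5% were close. *Mcl1* is the largest part of this sum, so the share is not independent of it. The share was not tested, no rate over all genes is at hand for such a sum, and the trend on exon length was left in.

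*Bax*, the cytosolic effector that moves to mitochondria when activated, had 10.2, 11.4, 13.4 and 11.3 CPM in WT mice 4, 5, 6 and 8. It had 12.4, 11.6, 12.7 and 12.96 CPM in *Opa1*+/- mice 2, 7, A and B. All 4 *Opa1*+/- values lay inside the WT range, above WT mice 4, 5 and 8 and below WT mouse 6. The means were 11.6 ± 1.34 CPM in WT, against 12.4 ± 0.573 CPM in *Opa1*+/- mice (SD over n = 4 mice each), with a log2 fold change of 0.11 (SE 0.1001, 95% interval -0.12 to 0.33, adjusted p = 0.856 from edgeR). Without WT mouse 6 it was 0.18 and the groups no longer overlapped, as in 9.12% of all genes without that mouse, and without WT mouse 4 it was 0.05. *Bax* shares 192 exonic bases with *Gm45808* on the same strand, a gene without an entry of its own in the counts.

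*Bak1*, the effector resident in the outer membrane, had 18.4, 19.9, 20.6 and 18.1 CPM in WT mice and 18.9, 19.2, 18.9 and 20.2 CPM in *Opa1*+/- mice. All 4 *Opa1*+/- values fell within the WT range. Its log2 fold change was 0.0037 (SE 0.0694, 95% interval -0.15 to 0.16, adjusted p = 0.994 from edgeR), and its sign turned under 10 of 22 alternative settings, DESeq2 size factors and unscaled total counts among them, so it has no stable direction. *Bak1* shares exonic bases with *Ggnbp1* on the opposite strand, which had 18.5 CPM in WT, against 17.1 CPM in *Opa1*+/- mice.

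*Bcl2*, the founding anti-apoptotic member, had 39.8, 38.7, 42.7 and 38.6 CPM in WT mice and 38.8, 36.3, 37.1 and 39.3 CPM in *Opa1*+/- mice. The groups overlapped, with mice 7 and A below every WT mouse. The means were 40.0 ± 1.92 and 37.9 ± 1.40 CPM (SD over n = 4 mice each), a log2 fold change of -0.08 (SE 0.0556, 95% interval -0.20 to 0.05, adjusted p = 0.808 from edgeR).

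*Bcl2l1*, whose product Bcl-xL is a main survival factor of mature neurons, had 75.2, 74.1, 95.2 and 96.9 CPM in WT mice and 82.3, 77.6, 86.1 and 85.8 CPM in *Opa1*+/- mice. The WT mice split into a low and a high pair, and all *Opa1*+/- mice lay between them. The means were 85.4 ± 12.4 and 82.9 ± 3.95 CPM (SD over n = 4 mice each), a log2 fold change of -0.04 (SE 0.0992, 95% interval -0.26 to 0.18, adjusted p = 0.949 from edgeR) that turned positive without WT mouse 6 or 8. The WT spread ran alongside the markers of hair cells, whose summed CPM was 646.6 and 697.5 in WT mice 4 and 5 and 899.0 and 819.3 in WT mice 6 and 8. *Calb2*, which neurons also express, made up 57.2% to 63% of that sum, and without it the sum was 239.2, 298.5, 346.3 and 311.5 CPM in WT mice 4, 5, 6 and 8. Over the 8 mice the correlation of *Bcl2l1* with the full hair cell sum, *Calb2* included, was r = 0.88 (permutation p = 0.00233, adjusted over 80 pairs of members and marker sums 0.187), with rho = 0.952 (permutation p = 0.00114, adjusted 0.0893). Without the pair of mice farthest from the median it was r = 0.70, and it did not pass the adjusted threshold. With *Calb2* taken out of the sum, r over the 8 mice was 0.73, and with *Calb2* alone it was 0.85, both without a test.

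*Mcl1*, a short-lived anti-apoptotic protein that has to be made continuously, had 76.9, 77.8, 84.1 and 89.9 CPM in WT mice and 73.1, 72.8, 68.6 and 75.8 CPM in *Opa1*+/- mice. Every *Opa1*+/- mouse lay below every WT mouse, but the highest of the former, mouse B, and the lowest of the latter, mouse 4, were close. The means were 82.2 ± 6.07 and 72.6 ± 2.99 CPM (SD over n = 4 mice each), a log2 fold change of -0.18 (SE 0.0661, 95% interval -0.33 to -0.03). The unadjusted p was 0.0224 and the adjusted p 0.722 from edgeR, with an unadjusted p of 0.0160 and an adjusted p of 0.996 from DESeq2. *Mcl1* was the single member whose groups did not overlap (exact permutation test of its CPM, two-sided, p = 0.0286, the smallest that 4 against 4 can give), and 2.33% of all genes tested showed such a separation with *Opa1*+/- lower and 4.31% in either direction. The separation was also present under the 4 other scalings and with the trend on exon length removed, where 1.71% of all genes were separated with *Opa1*+/- lower. Leaving mice out could not have ended it. The log2 fold change stayed between -0.21 and -0.14 over 22 alternatives, with adjusted p-values from 0.411 to 0.9996, so the difference failed correction over all genes under every one. Across the mice *Mcl1* was lower where the erythroid sum was higher (r = -0.75, permutation p = 0.0316, adjusted 0.473, and rho = -0.62, permutation p = 0.115, adjusted 0.767), a relation that rested on WT mice 6 and 8, without which r was -0.0149.

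*Bad*, a BH3-only protein that growth factor kinases such as Akt keep phosphorylated and inactive, had 15.4, 12.6, 15.5 and 13.5 CPM in WT mice. It had 16.1, 15.0, 17.5 and 16.8 CPM in *Opa1*+/- mice. In 3 of 4 *Opa1*+/- mice *Bad* was above every WT mouse, and mouse 7 fell inside the WT range. The means were 14.2 ± 1.42 and 16.4 ± 1.03 CPM (SD over n = 4 mice each), a log2 fold change of 0.20 (SE 0.0930, 95% interval -0.0068 to 0.41), with an unadjusted p of 0.0565 and an adjusted p of 0.748 from edgeR. Without mouse 7, which lay inside the WT range, the groups did not overlap, as in 8.06% of all genes without that mouse. *Bad* was higher where the sum of Schwann cell and myelin markers was higher (r = 0.74, permutation p = 0.0354, adjusted 0.473, and rho = 0.67, permutation p = 0.0831, adjusted 0.767), with r = 0.82 without the pair of mice farthest from the median, and the relation failed correction. That sum was itself higher in *Opa1*+/- mice by 0.19 on the log2 scale (exact permutation test, two-sided, p = 0.257), and its part in the difference of *Bad* was not tested. *Bad* shares 524 exonic bases with *Gpr137*, which is read from the opposite strand and had 34.1 and 35.3 CPM in WT, against *Opa1*+/- mice. Whether the counting used strand is not given in the sources used here, so reads from that stretch may have been assigned to either gene.

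*Bid*, which links death receptors to mitochondria after cleavage by caspase 8, had the widest relative spread of the members in WT mice, with an SD of 34.2% of the mean, and an SD of 29.15% in *Opa1*+/- mice. It had 9.99, 4.74, 6.21 and 5.83 CPM in WT mice and 6.68, 6.42, 11.02 and 10.91 CPM in *Opa1*+/- mice. WT mouse 4 and *Opa1*+/- mice A and B formed a high group near 10 to 11 CPM, and the other 5 mice lay between 4.74 and 6.68 CPM. The means were 6.69 ± 2.29 and 8.76 ± 2.55 CPM (SD over n = 4 mice each), a log2 fold change of 0.39 (SE 0.267, 95% interval -0.21 to 0.99, adjusted p = 0.795 from edgeR). Without WT mouse 4 it was 0.64 and the groups did not overlap, as in 11.6% of all genes without that mouse, without *Opa1*+/- mice A and B it was -0.03, and without all of these 3 mice it was 0.22. The adjusted p-values of *Bid* over its 22 alternatives ranged from 0.424 to 0.9996.

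The same 3 mice had the highest blood and marrow markers. Summed CPM of 12 neutrophil and marrow markers was 1499.7 in WT mouse 4, 911.8 in mouse A and 1221 in mouse B, against 464.6 to 566.5 in the other 5 mice. The erythroid sum was 21629.9, 18599 and 25218 in these 3 mice and 7881 to 15586 in the others. By *Bid* and the neutrophil and marrow sum the mice thus fell into clusters of 3 and 5, each too small for a correlation of its own, so no coefficient is given. Within WT, *Bid* was highest in the mouse with the highest marker sums, and within *Opa1*+/- in the pair with the highest sums. The part of blood or marrow cells in the difference of *Bid* was not tested. *Bid* also shares 628 exonic bases with *Bcl2l13*, a family relative on the opposite strand with 33.2 and 36.9 CPM in WT, against *Opa1*+/- mice.

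**Figure D2:**
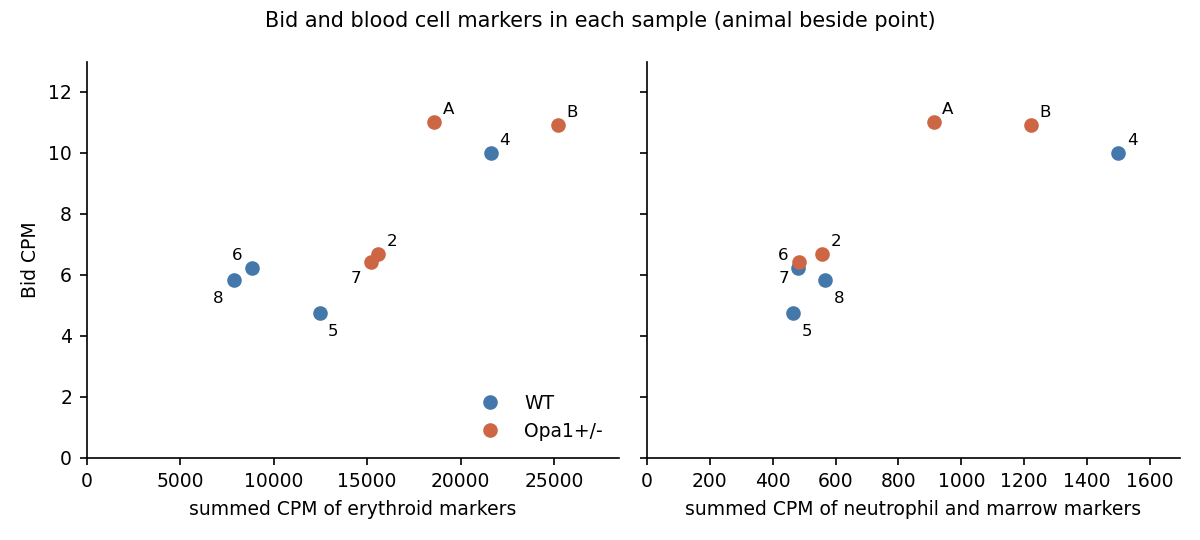
*Bid* CPM of each mouse (vertical axis) against the summed CPM of erythroid markers (left) and of neutrophil and marrow markers (right), WT in blue and *Opa1*+/- in orange, with the animal number beside each point. Mice 4, A and B, from both genotypes, sit together at high *Bid* and high marker sums.

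*Bcl2l11*, the BH3-only activator Bim that is induced when neurons lose trophic support, had 9.47, 13.1, 12.1 and 10.1 CPM in WT mice and 10.5, 11.3, 10.6 and 9.70 CPM in *Opa1*+/- mice. The *Opa1*+/- values all lay within the WT range. The log2 fold change was -0.09 (SE 0.121, 95% interval -0.36 to 0.18, adjusted p = 0.905 from edgeR), and without WT mouse 5 it was -0.0057. *Bcl2l11* ran against the neutrophil and marrow sum in rank (rho = -0.929, permutation p = 0.00223, adjusted 0.0893, and r = -0.78, permutation p = 0.0237, adjusted 0.473), a relation that failed correction and fell to r = -0.56 without WT mouse 4 and *Opa1*+/- mouse B.

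*Bbc3*, the p53 target Puma, was counted between 25 and 48 times per library. It had 1.71, 2.34, 1.85 and 1.47 CPM in WT mice and 1.48, 2.16, 2.23 and 2.17 CPM in *Opa1*+/- mice. Mouse 2 stood below the other *Opa1*+/- mice and at the lower end of the WT range. The log2 fold change was 0.12 (SE 0.212, 95% interval -0.35 to 0.60, adjusted p = 0.933 from edgeR). With 1 mouse left out it ran from 0.0200 (without WT mouse 8) to 0.26 (without WT mouse 5).

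*Pmaip1*, the p53 target Noxa whose product binds Mcl1 with preference, was the least abundant member, with 7 to 28 counts per library. It had 0.74, 0.78, 1.02 and 1.37 CPM in WT mice and 0.53, 0.80, 0.43 and 1.09 CPM in *Opa1*+/- mice. The groups overlapped, with mice 2 and A below every WT mouse. Its log2 fold change of -0.46 was the least certain among the members (SE 0.333, 95% interval -1.20 to 0.29, adjusted p = 0.808 from edgeR). With 1 mouse left out it ran from -0.24 (without WT mouse 8) to -0.71 (without mouse B). The SD between mice was 29.5% of the mean in WT and 41.1% in *Opa1*+/- mice, and counting alone gives 25.5%.

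**Figure D3:**
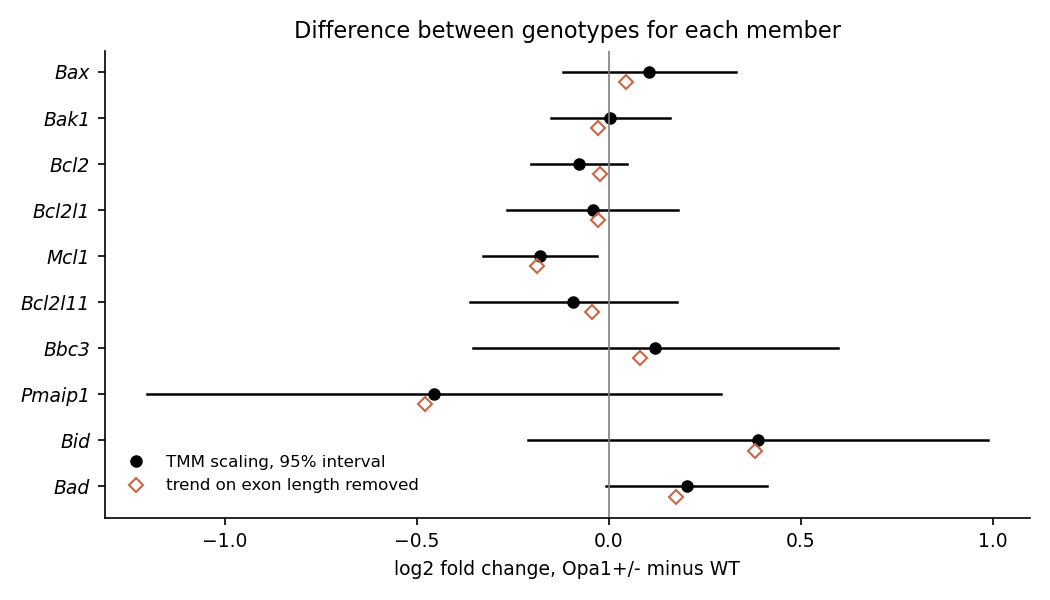
Log2 fold change of each member, *Opa1*+/- minus WT (horizontal axis): black points with 95% intervals from edgeR with TMM scaling, orange diamonds with the trend on exon length removed. The interval of *Mcl1* alone, -0.33 to -0.03, leaves out 0, and removing the trend moves *Bax*, *Bak1* and *Bcl2* more than *Mcl1*.

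By role, both effectors had positive fold changes, all 3 anti-apoptotic members negative ones, and the BH3-only members were split with 3 higher and 2 lower. None of these counts includes a gene past the adjusted threshold, and the positive sign of *Bak1* is among those that turned. Within groups, the relative spread between mice was smaller in *Opa1*+/- than in WT mice for 9 of the 10 members, the exception being *Pmaip1*, and for 54.5% of all genes tested.

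The ratio of *Bax* to *Bcl2*, often used as a summary of the balance, was calculated per mouse from CPM per kilobase. It was 1.48, 1.71, 1.82 and 1.69 in WT mice 4, 5, 6 and 8, and 1.86, 1.86, 1.99 and 1.92 in *Opa1*+/- mice 2, 7, A and B. The groups did not overlap, although *Opa1*+/- mouse 7 at 1.86 and WT mouse 6 at 1.82 were close, and the means were 1.68 ± 0.141 and 1.91 ± 0.0610 (SD over n = 4 mice each). Effectors over anti-apoptotic genes came to 0.327 ± 0.0318 in WT and 0.366 ± 0.00435 in *Opa1*+/- mice, also without overlap. BH3-only over anti-apoptotic genes came to 0.216 ± 0.0308 and 0.262 ± 0.0237, with overlap.

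The *Bax* to *Bcl2* ratio sets a short gene against a long one, and length moved with genotype in these libraries. Both effectors are also shorter than the anti-apoptotic genes, while the BH3-only genes run from short to long. Over 18614 genes with a known exon length, log2 fold changes fell with length (Spearman correlation across genes -0.37, a description, since genes are not independent). With the genes in 5 classes of equal number by exon length, from class 1 (shortest) to class 5 (longest), the median log2 fold change was 0.13, 0.03, -0.0029, -0.03 and -0.06. *Bax*, with 1576 exonic bases, lies in class 2 together with *Bak1*, *Bbc3*, *Pmaip1* and *Bad*, and *Bcl2*, with 9157 bases, lies in class 5 with *Bcl2l11*. *Mcl1* and *Bid* belong to class 3, and *Bcl2l1* to class 4. The labels name an alternative RNA extraction kit beside TRI Reagent and do not tie either to mice, so the trend could not be set against extraction.

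**Figure D4:**
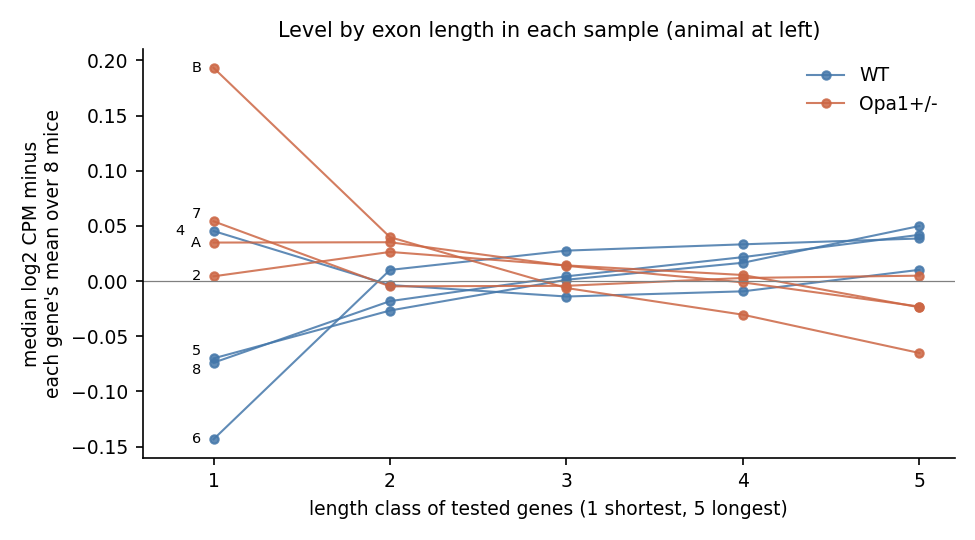
Median of log2 CPM minus each gene's mean over the 8 mice (vertical axis) for 5 classes of genes by exon length (horizontal axis, shortest to longest), 1 line per mouse, WT in blue and *Opa1*+/- in orange. In class 5 the 4 WT mice lie above the 4 *Opa1*+/- mice, and in class 1 WT mouse 4 lies among the *Opa1*+/- mice.

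When each library's trend on exon length was removed, a setting chosen after this pattern was seen, the *Bax* to *Bcl2* ratio became 1.74 ± 0.183 in WT and 1.83 ± 0.0751 in *Opa1*+/- mice (SD over n = 4 mice each), and the groups overlapped. Its log2 difference went from 0.19 to 0.07. The ratio of effectors to anti-apoptotic genes overlapped as well, at 0.333 ± 0.0333 and 0.359 ± 0.00597, and that of BH3-only to anti-apoptotic genes, which had overlapped before, was 0.217 ± 0.0297 and 0.259 ± 0.0223. The log2 fold change of *Mcl1* was -0.19 after the removal (SE 0.0641, unadjusted p = 0.0161, adjusted p = 0.964 from edgeR), that of *Bax* fell to 0.04, that of *Bcl2* came to -0.02 and that of *Bad* to 0.17. Thus the log2 fold change of *Mcl1* was as large without the trend, and the difference in the *Bax* to *Bcl2* ratio was not. In this setting *Mcl1* lay at 78.0 to 89.9 CPM in WT, against 67.8 to 75.7 CPM in *Opa1*+/- mice, still without overlap.

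**Figure D5:**
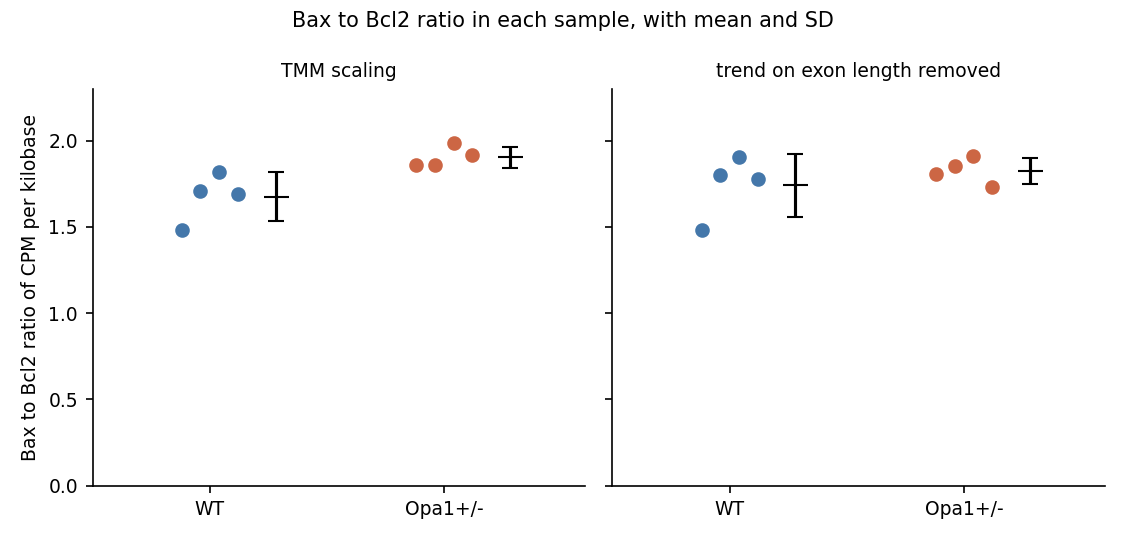
Ratio of *Bax* to *Bcl2* CPM per kilobase (vertical axis) in each mouse, with the group's mean and SD beside the points, under TMM scaling (left) and with each library's trend on exon length removed (right). The groups lie apart on the left, at 1.48 to 1.82 and 1.86 to 1.99, and overlap on the right.

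The genes around the 10 members were read from 4 lists, in which no gene passed the adjusted threshold in either direction, in edgeR or in DESeq2. Of 15 further family members, 14 were tested, 7 higher and 7 lower, with a median log2 fold change of -0.0024 and none at an unadjusted p under 0.05. The 4 with the lowest p were *Bcl2l13* at 0.15 (SE 0.0896), *Bcl2l12* at -0.17 (SE 0.135), the anti-apoptotic *Bcl2l2* at -0.07 (SE 0.0542) and the mitophagy receptor *Bnip3* at -0.08 (SE 0.0764). *Bcl2l2*, the product of which is Bcl-w, was at 58.2 ± 1.59 CPM in WT, against 55.5 ± 2.73 CPM in *Opa1*+/- mice (SD over n = 4 mice each), without a detectable difference (adjusted p = 0.830 from edgeR). *Bcl2l10* fell under the count minimum.

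Downstream of the pore, 18 of 19 genes of the apoptosome, the caspases and their inhibitors were tested, 8 higher and 10 lower, with 1 at an unadjusted p under 0.05, a share near the 6.72% of all genes. That gene was *Xiap*, an inhibitor of caspases, with 82.5, 83.6, 79.3 and 79.4 CPM in WT mice and 73.3, 74.6, 68.9 and 67.4 CPM in *Opa1*+/- mice. The groups did not overlap, as in 2.33% of all genes in this direction. The log2 fold change was -0.19 (SE 0.0550, unadjusted p = 0.00612, adjusted p = 0.722 from edgeR), and -0.14 with the trend on exon length removed. *Casp2* followed at -0.15 (SE 0.0869) and *Birc2* at -0.11 (SE 0.0723). *Cycs*, which encodes somatic cytochrome c, had 191.5 ± 27.99 CPM in WT, against 199.5 ± 23.4 CPM in *Opa1*+/- mice (SD over n = 4 mice each). *Apaf1*, the scaffold of the apoptosome, had 7.52 ± 0.461 and 6.81 ± 0.823 CPM. These last values are given for their place in the pathway and did not pass the test.

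Upstream, 16 genes of the p53 pathway (*Trp53*, its regulators *Mdm2* and *Mdm4*, and its targets) were tested, 8 higher and 8 lower, with 2 at an unadjusted p under 0.05, where 6.72% of all genes lie. *Trp53inp1*, a stress-induced regulator of p53, had 58.4, 65.9, 51.7 and 79.3 CPM in WT mice and 53.2, 47.9, 46.7 and 44.9 CPM in *Opa1*+/- mice. WT mouse 8 was the highest and WT mouse 6 fell below *Opa1*+/- mouse 2. Its log2 fold change was -0.41 (SE 0.122, unadjusted p = 0.00806, adjusted p = 0.722 from edgeR), and -0.37 (unadjusted p = 0.0117) with the trend on exon length removed. *Mdm4*, an inhibitor of p53, lay at 87.7 to 94.3 CPM in WT, against 71.3 to 86.1 CPM in *Opa1*+/- mice, without overlap (2.33% of all genes in this direction), with a log2 fold change of -0.20 (SE 0.0672, unadjusted p = 0.0145, adjusted p = 0.722 from edgeR) and of -0.12 (unadjusted p = 0.0666 from edgeR) with the trend on exon length removed. *Phlda3* stood at 0.24 (SE 0.116) and *Cdkn1a*, the cell cycle inhibitor p21, at 0.18 (SE 0.0954).

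Of 20 regulators that act on the family by transcription, phosphorylation, turnover or binding, 8 were higher and 12 lower, and 3 had an unadjusted p under 0.05, against 6.72% of all genes. *Ddit3*, the stress transcription factor CHOP that induces *Bcl2l11* and *Bbc3*, had 30.1, 26.1, 27.96 and 27.6 CPM in WT mice and 33.9, 34.7, 39.2 and 31.7 CPM in *Opa1*+/- mice. Each *Opa1*+/- mouse was above each WT mouse, a separation in this direction that 1.98% of all genes showed. The log2 fold change was 0.32 (SE 0.0769, 95% interval 0.15 to 0.49, unadjusted p = 0.00209, adjusted p = 0.722 from edgeR), and the trend on exon length was not removed from it, since 2 gene identifiers share the symbol. Their exons together span 1713 bases, which is in class 2 by length, with a median log2 fold change of 0.03. *Mapk9*, which encodes the kinase JNK2, was at -0.15 (SE 0.0604), or -0.12 with the trend removed (unadjusted p = 0.0833 from edgeR), and *Usp9x*, the deubiquitinase that stabilizes Mcl1, at -0.17 (SE 0.0715). *Usp9x* lies in class 5 by exon length, and with the trend removed its log2 fold change was -0.09 (unadjusted p = 0.216 from edgeR). Neither gene was then under 0.05, where 4.78% of all genes lay in that setting. *Gsk3b*, which marks Mcl1 for degradation, was at -0.13 (SE 0.0619).

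Among the members themselves, *Mcl1* and *Pmaip1* ran most closely together over the 8 mice (r = 0.85 of log2 CPM, with no test), followed by *Bid* and *Bad* (r = 0.83). *Bcl2l11* and *Bid* ran most strongly in opposite directions (r = -0.73). Of 11471 genes with a mean of at least 10 CPM, those most like each member over the same 8 mice were *Phlda1*, *Ints3* and *Vegfb* for *Bax* (r = 0.97 each). For *Bak1* they were *Ermn*, *Pyurf* and *Poldip2* (r = 0.98, 0.96 and 0.94), and for *Bcl2* they were *Ttc27*, *Eif3j2* and *Nab1* (r from 0.93 to 0.94). For *Bcl2l1* they were *Rnf216*, *Zbtb16* and *Mertk* (r = 0.97, 0.96 and 0.94). For *Mcl1* they were *Osgin2*, *Atp2a2* and *Trappc13* (r = 0.96, 0.95 and 0.94).

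*Bad* ran with *Rpl8*, *Lamtor4* and *Rps15* (r = 0.99, 0.97 and 0.97) and *Bid* with *Gm12254*, *Rpl27a* and *Tma7* (r = 0.98, 0.98 and 0.97). *Bcl2l11* ran with *Atp5a1*, *Fam210a* and *Ahr* (r = 0.95 each), *Pmaip1* with *Clcn4*, *Ccdc126* and *Rnf111* (r = 0.95, 0.95 and 0.94) and *Bbc3* with *Scpep1*, *Acad11* and *Pde6d* (r = 0.89 each). With 8 points and so many candidates, coefficients of this size are a description of likeness in these mice and no more.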

How the data were processed

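The authors extracted RNA from isolated cochleae (with TRI Reagent in the methods of the paper, and TRI Reagent or an RNeasy kit per the labels, not tied to samples), prepared CORALL libraries, sequenced paired reads of 80 nucleotides, mapped them to GRCm38 with STAR and deposited, for each mouse, a table of raw counts per gene symbol, not normalized. The paper names the CORALL Data Analysis Pipeline and a correction of amplification bias by unique molecular identifiers. The counting program and its use of strand are not given in the sources used here. The 15 entries with a number for a name (0.112% to 0.124% of counts) were left out, and entries repeating a symbol were kept.

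CPM used TMM factors (0.948 to 1.06) from edgeR 4.0.16. Genes with a mean normalized count over 10 were tested with edgeR's quasi-likelihood test, unpaired, with Benjamini-Hochberg adjustment at 0.05 and DESeq2 1.42.0 as an alternative. Standard errors were taken from F (log2 fold change over its square root). Single values were compared by exact two-sided permutation. Correlations over mice used log2 CPM. Every gene model and exon length came from GENCODE vM21. The spreads between mice include counting error. Tests were checked on simulated counts.

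All 10 members are named, with the genes of each list past the threshold or else those of lowest p (up to 4), the 3 genes most like each member, *Opa1* and the markers. A gene that this rule names is not reported here. *Cycs* and *Apaf1* were added after their values were seen. The members and lists were chosen with earlier results of these data known. Alternatives were other scalings, filters, tools and thresholds, a surrogate variable, mice left out, transcript length, and, after seeing the data, the length trend removed and 3 mice left out together.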

Additional observations from a re-analysis of the deposited data

Results flagged for a closer look

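In 46 groups of 4 mice (members, their 3 ratios and marker sums within a genotype) the highest and lowest values were held against Dixon's 95% critical value, which chance passes in about 1 of 20 groups, and 2 passed. *Bbc3* of *Opa1*+/- mouse 2, at 1.48 CPM, stood below the other *Opa1*+/- mice at 2.16 to 2.23 CPM, and at 25 to 48 counts per library the counting error of this gene is large. The summed neutrophil and marrow markers of WT mouse 4, at 1499.7 CPM, stood above the 464.6 to 566.5 CPM of the other WT mice, and this mouse also had the highest WT level of *Bid*.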

How the results depend on the processing

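No member and no gene of the 4 lists passed the adjusted threshold under any of 22 alternatives, and *Bcl2*, *Mcl1*, *Bcl2l11*, *Pmaip1* and *Bad* kept their signs under all that gave a value. *Pmaip1* was not tested under the filter of 1 CPM in 4 mice. The paper describes the WT mice as littermates, and the animal numbers do not show which mice shared a litter. No paired analysis was made. Genes past the threshold, 5 in all, became 12 without a filter, 23 with DESeq2, 10 with limma voom, 10 with robust estimation, 11 at a threshold of 0.1, 1 with a surrogate variable, 1 with the length trend removed, 0 without mice A and B and 0 without these and WT mouse 4. Leaving out 1 mouse gave 0 (without *Opa1*+/- mouse 2) to 9 (without WT mouse 4). *Opa1* ran from -0.90 to -0.83 with 1 mouse left out, missing the threshold without *Opa1*+/- mouse 2, and was -0.86 without mice A and B and -0.87 without WT mouse 4 as well, past the threshold in neither. The cause of these changes was not tested, except that fewer mice entered the last 2. Members without overlap, 1 in all, numbered 1 to 2 with 1 mouse left out, where 5.67% to 11.6% of all genes were separated, and 2 without mice 4, A and B, where 23.4% were. By longest coding transcript 5 of 10 members kept their rank of level per length.

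Signs turned as follows. *Bak1* was -0.0023 with DESeq2 size factors, -0.0233 with total counts, -0.0002 without a filter, -0.0020 with DESeq2, -0.0286 with the length trend removed, -0.0158 without mice A and B, -0.0421 without WT mouse 4 as well, and -0.0282 to 0.0379 with 1 mouse left out. *Bcl2l1* was 0.0273 with a surrogate variable and -0.10 to 0.0212 with 1 mouse left out. Without mice A and B, *Bbc3* was -0.0162 and *Bid* -0.0279, the neutrophil and marrow sum -0.53 and the macrophage sum -0.0560. Without WT mouse 4 as well, *Bax* was -0.0020, *Bbc3* -0.0553 and the macrophage sum -0.0236. The macrophage sum was -0.0093 with total counts. With 1 mouse left out, log2 ratios of marker sums ran from -0.0880 to 0.16 for macrophages, -0.21 to 0.65 for neutrophils and marrow, -0.0688 to 0.0091 for B lymphocytes, -0.0826 to 0.0073 for spiral ganglion neurons, -0.16 to 0.0009 for hair cells and 0.37 to 0.94 for erythroid cells, the last with p = 0.0286 (exact permutation, the smallest possible) without WT mouse 4.

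Counts were lowest for *Bbc3* and *Pmaip1*, with 25 to 48 and 7 to 28 counts per library. The groups of 4 mice bound most members' differences but cannot show that levels are equal.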

Other observations

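Of the cell type lists, the summed CPM of 10 Schwann cell and myelin markers was 3465 to 4701 in WT and 4128 to 5571 in *Opa1*+/- mice, with all 10 genes higher on average in the latter (exact two-sided permutation test of the sums, p = 0.257). The 9 stria vascularis markers summed to 1004 to 1951 CPM in WT and 1286 to 1466 CPM in *Opa1*+/- mice (exact permutation, p = 0.571), and the 11 bone markers to 2711 to 3331 and 2448 to 3105 CPM (exact permutation, p = 0.429). Hair cell markers summed to 646.6 to 899.0 CPM in WT and to 716.9 to 727.8 CPM in *Opa1*+/- mice (exact permutation, p = 0.486), a spread over the 4 *Opa1*+/- mice of 5.15 CPM (SD) against 114.7 CPM in WT. *Calb2* made up 57.2% to 63% of this sum, and without it the SD was 13.98 CPM in *Opa1*+/- and 44.7 CPM in WT mice. Of 80 pairs of a member with a marker sum, 6 had an unadjusted permutation p under 0.05 and 0 passed after adjustment.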
